A study of Mus musculus with 8 samples.

Results

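Aminotransferases move the amino group of an amino acid onto a keto acid, and in liver they are the step through which most amino nitrogen reaches glutamate and aspartate on its way to urea. The set described here is the 9 aminotransferase genes Got1, Got2, Gpt, Gpt2, Tat, Agxt, Agxt2, Aadat and Psat1, found by gene symbol in a count table of 24317 genes, where each of the 9 symbols occurred once. The set was chosen by enzyme family after results of the same comparison were known. Got1 and Tat brought it into view because their counts differed between the diets, so their differences, and any call or p-value of theirs below, are a description that supports nothing. All these enzymes work with pyridoxal phosphate, the active form of vitamin B6. Several reactions are run by a cytosolic and a mitochondrial enzyme made from separate genes, and the relation between these forms is the question here. Of the 9 genes, 4 encode cytosolic enzymes (Got1, Gpt, Tat and Psat1), 4 encode mitochondrial enzymes (Got2, Gpt2, Aadat and Agxt2), and Agxt encodes a peroxisomal enzyme that also reaches mitochondria in some mammals.

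RNA of whole liver of C57BL/6 mice was sequenced in 8 libraries. Normal chow was the diet in 4 of them, and in the other 4 the chow held 6% NaCl for 6 weeks (high salt). The labels name no age or sex. Neither separate animals nor separate cages are stated for the libraries, and the spread behind each p-value may thus be technical in part. High-salt libraries have titles that start with N, which could be read as normal, and swapped labels would turn every direction given here. Total counts were between 16620368 and 18639685 per library. Summed CPM of hepatocyte markers (7 of 8 listed genes were in the table) lay between 125196 and 143090 in normal chow and between 132748 and 138748 in high salt. CPM stands for counts scaled to a common library size of 1e6 by the TMM method of edgeR. In bulk tissue, fewer cells of a type and less RNA per cell cannot be told apart.

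The windows from 250 bases before to 50 bases after the annotated start were available for 8 of the 9 genes, all but Gpt, from RefSeq on GRCm38.p6. Those of Got1, Tat and Got2 are shown because Got1 and Tat were lower together in high salt while Got2, the mitochondrial partner of Got1, was not. Each is written 5′ to 3′ on the strand of the gene. Capitals mark matches on either strand to any of 7 short motifs searched, namely TATAAA for a core promoter element, CCAAT for NF-Y, GGGCGG for Sp1 proteins, AGAACA for the glucocorticoid receptor, TGATGNAA for the amino acid response, TTGCNNAA for C/EBP proteins and GTAAACA for forkhead proteins. The windows are chr19:43524556-43524855 on the minus strand for Got1, chr8:109990186-109990485 on the plus strand for Tat, and chr8:95888352-95888651 on the minus strand for Got2.
Got1: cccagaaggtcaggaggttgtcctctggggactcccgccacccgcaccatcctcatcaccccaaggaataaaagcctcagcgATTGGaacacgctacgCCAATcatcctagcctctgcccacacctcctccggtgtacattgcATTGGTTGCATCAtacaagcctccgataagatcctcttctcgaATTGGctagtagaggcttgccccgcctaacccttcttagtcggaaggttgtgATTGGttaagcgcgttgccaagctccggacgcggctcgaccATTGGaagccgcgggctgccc
Tat: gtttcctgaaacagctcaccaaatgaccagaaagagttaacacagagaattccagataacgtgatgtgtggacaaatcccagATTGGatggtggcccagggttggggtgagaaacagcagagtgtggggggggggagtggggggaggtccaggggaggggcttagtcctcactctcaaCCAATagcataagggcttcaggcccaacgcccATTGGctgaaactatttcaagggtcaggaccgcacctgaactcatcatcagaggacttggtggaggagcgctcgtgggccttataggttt
Got2: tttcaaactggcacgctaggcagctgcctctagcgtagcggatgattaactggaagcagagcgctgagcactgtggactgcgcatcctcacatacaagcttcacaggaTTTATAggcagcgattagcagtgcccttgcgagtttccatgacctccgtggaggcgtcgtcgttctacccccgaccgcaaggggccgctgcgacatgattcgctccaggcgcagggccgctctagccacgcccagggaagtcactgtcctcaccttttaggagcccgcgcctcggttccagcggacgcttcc

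The Got1 window held 6 CCAAT matches, the Tat window held 3 and the Got2 window held 0. Of the 2 windows of Psat1, 1 also held 3 and the other 0, the Aadat window held 1, and those of Gpt2, Agxt and Agxt2 held 0. Of all 32851 windows of this length in the table, 37.4% held at least 1 CCAAT match, 3.37% at least 3 and 0.0791% at least 6. The Got1 window also held 1 match to TGATGNAA, directly beside the CCAAT match that begins 107 bases before the start. That motif was found in 3.97% of all windows and in none of the windows of the other 7 genes. Got2 held 1 TATAAA match, read on the opposite strand at position -142 from the start. TATAAA was found in 13.6% of all windows. AGAACA was found in 19% of all windows and, among the 8 genes, only in that of Agxt. Of the remaining windows, those of Psat1, Aadat and Gpt2 held GGGCGG matches, and that of Agxt2 held TATAAA and TTGCNNAA. GTAAACA matched in none of the 8 genes' windows and in 3.65% of all. These are matches of letters within a short window and say nothing about binding or about sites farther away. The windows of Got1, Tat and Got2 were picked by the diet differences that brought the set into view. Nothing is thus read from the contrast of their matches.

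Got1 encodes the cytosolic aspartate aminotransferase, which exchanges the amino group between aspartate and glutamate and is measured in blood as AST together with its mitochondrial form. In normal chow its level was 645, 499, 599 and 583 CPM in libraries 1 to 4, and in high salt it was 306, 262, 295 and 367 CPM. Every high-salt library was below every normal-chow library. The level fell by 47.1%, a log2 fold change of -0.92 ± 0.11 (SE, n = 4 per group). Got1 lies on chromosome 19 from 43499752 to 43524605 (GRCm38), and none of the 50-base words of its transcripts occurs in a transcript of another gene. In the authors' deposited table Got1 had a fold of 0.527 and Tat a fold of 0.645, with adjusted p = 1.18e-11 and 8.21e-09 there, and neither was marked as significant in that table.

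Tat encodes tyrosine aminotransferase, the cytosolic first enzyme of tyrosine breakdown and a classic glucocorticoid-induced gene of liver. Its level was 3648, 3480, 3723 and 2900 CPM in normal chow and 2151, 2235, 2175 and 2349 CPM in high salt. The groups did not overlap, and the 4 high-salt libraries lay much closer together (SD 88.3 CPM) than the normal-chow libraries (SD 373 CPM). The log2 fold change was -0.63 ± 0.09 (SE). Tat was at position 32 of 13341 tested genes by mean CPM in normal chow, and its difference alone made up most of the difference in the summed CPM of the 9 genes. That sum ran from 5264 to 6039 CPM on normal chow and from 3890 to 4378 CPM on high salt.

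Got2 encodes the mitochondrial aspartate aminotransferase, which runs the reaction of Got1 on the other side of the mitochondrial membrane and with it forms part of the malate-aspartate shuttle. Its level was 341, 329, 341 and 353 CPM in normal chow and 364, 339, 330 and 342 CPM in high salt, so the groups overlapped. The log2 fold change was 0.01 (95% interval -0.15 to 0.17, edgeR adjusted p = 0.975). Of the 50-base words of its transcripts, 25.6% also occur in transcripts of Got2-ps1, Gm10874 or Gm45760. The last of these lies on the opposite strand of Got2 and had at most 8 counts in any library.

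**Figure D1:**
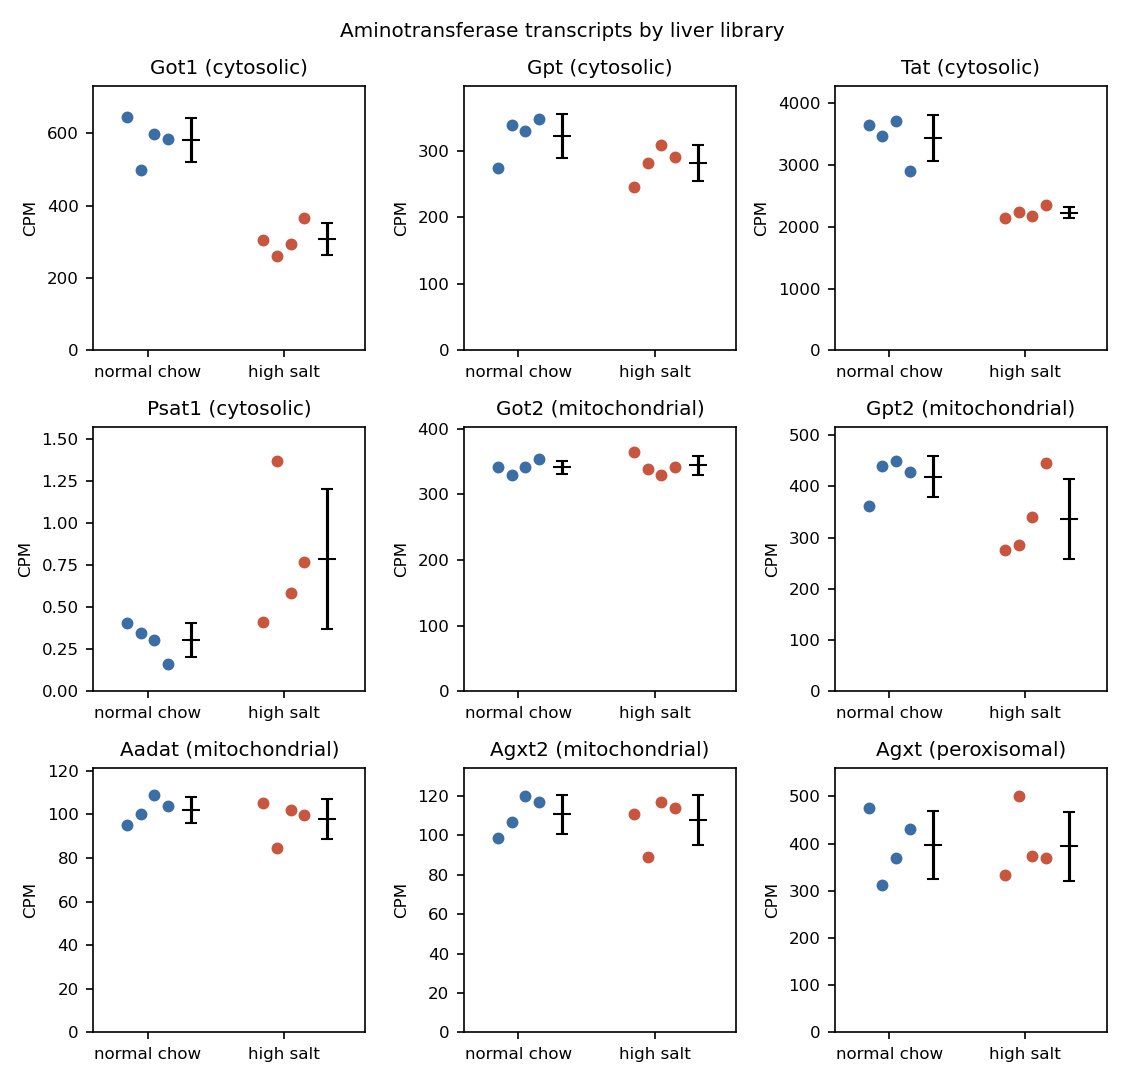
Level of each of the 9 aminotransferase genes in CPM (vertical axis, from 0) in each liver library, with 4 libraries of normal chow (blue) and 4 of high salt (red); the bars are the mean and SD of each group. Got1 and Tat separate the groups by a wide gap, Psat1 does so narrowly at under 1.5 CPM, and the other 6 genes overlap.

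Gpt and Gpt2 encode the cytosolic and the mitochondrial alanine aminotransferase, which link alanine to pyruvate and so feed muscle nitrogen and carbon into liver. Gpt was at 274, 338, 329 and 348 CPM in normal chow and at 245, 281, 309 and 291 CPM in high salt. Gpt2 was at 361, 439, 449 and 428 CPM in normal chow and at 275, 286, 341 and 445 CPM in high salt. Both genes overlapped between the diets, and for Gpt2 it was library 4 of the high-salt group that reached the normal-chow level. The log2 fold change of Gpt was -0.20 (95% interval -0.41 to 0.02, adjusted p = 0.506). That of Gpt2 was -0.32 (95% interval -0.62 to -0.01, adjusted p = 0.444). Neither passed the test over all genes.

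Aadat encodes a mitochondrial aminotransferase that acts on kynurenine and on aminoadipate, an intermediate of lysine breakdown. It was at 95.3, 100, 109 and 104 CPM in normal chow and at 105, 84.7, 102 and 99.6 CPM in high salt. Agxt2 encodes a mitochondrial enzyme that passes the amino group of alanine to glyoxylate and also breaks down asymmetric dimethylarginine. Its level was 98.5, 107, 120 and 117 CPM in normal chow and 111, 89.2, 117 and 114 CPM in high salt. In both genes library 2 of the high-salt group was the lowest of all 8. The log2 fold change was -0.06 for Aadat (95% interval -0.25 to 0.12, adjusted p = 0.850) and -0.04 for Agxt2 (95% interval -0.25 to 0.18, adjusted p = 0.939).

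Agxt encodes the alanine-glyoxylate aminotransferase that keeps glyoxylate from becoming oxalate. It was at 476, 312, 370 and 431 CPM in normal chow and at 334, 500, 373 and 369 CPM in high salt, with the lowest library in normal chow and the highest in high salt. The log2 fold change was -0.01 (95% interval -0.34 to 0.31, adjusted p = 0.984), the widest interval among the 8 tested genes.

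Psat1 encodes phosphoserine aminotransferase, the second step of serine synthesis in the cytosol, and was close to silent in these livers. It had 7, 6, 5 and 3 reads in normal chow and 7, 25, 10 and 14 reads in high salt, or 0.166 to 0.406 CPM against 0.415 to 1.37 CPM. The groups did not overlap, but the nearest libraries each had 7 reads. Psat1 did not pass the filter on low counts. In a fit with no filter its log2 fold change was 1.34 ± 0.49 (adjusted p = 0.255 over 24317 genes). Library 2 of the high-salt group had the most Psat1 reads and also the highest summed level of 6 B and plasma cell markers. The sum was 70.1 CPM there, 9.19 to 22.2 CPM in the other high-salt libraries and 5.46 to 12.6 CPM in normal chow. The part of such cells in the Psat1 reads was not tested.

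In all, 8 of the 9 genes were tested. Of these 2 were called lower in high salt (edgeR adjusted p below 0.05 over 13341 genes), namely Got1 and Tat, the genes that brought the set into view, and 0 were called higher. Over all tested genes 0.300% were called, with 0.150% lower and 0.150% higher (20 genes each, but 21 higher and 11 lower with libraries scaled by total counts), and the values of the groups did not overlap in 6.36%. Since calls in this comparison brought Got1 and Tat into the set, nothing is read from that contrast of shares. Of the 6 other tested members, 0 were called by any of edgeR, DESeq2 and limma-voom, and Gpt2 had an unadjusted p below 0.05. The median log2 fold change was -0.63 over the 3 tested cytosolic genes, -0.05 over the 4 mitochondrial genes and 0.01 over all tested genes. The cytosolic median is the value of Tat, and Got1 and Tat brought the set into view, so nothing is read from these medians about compartments. Gpt, the remaining tested cytosolic gene, was at -0.20, beside -0.32 for mitochondrial Gpt2.

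**Figure D2:**
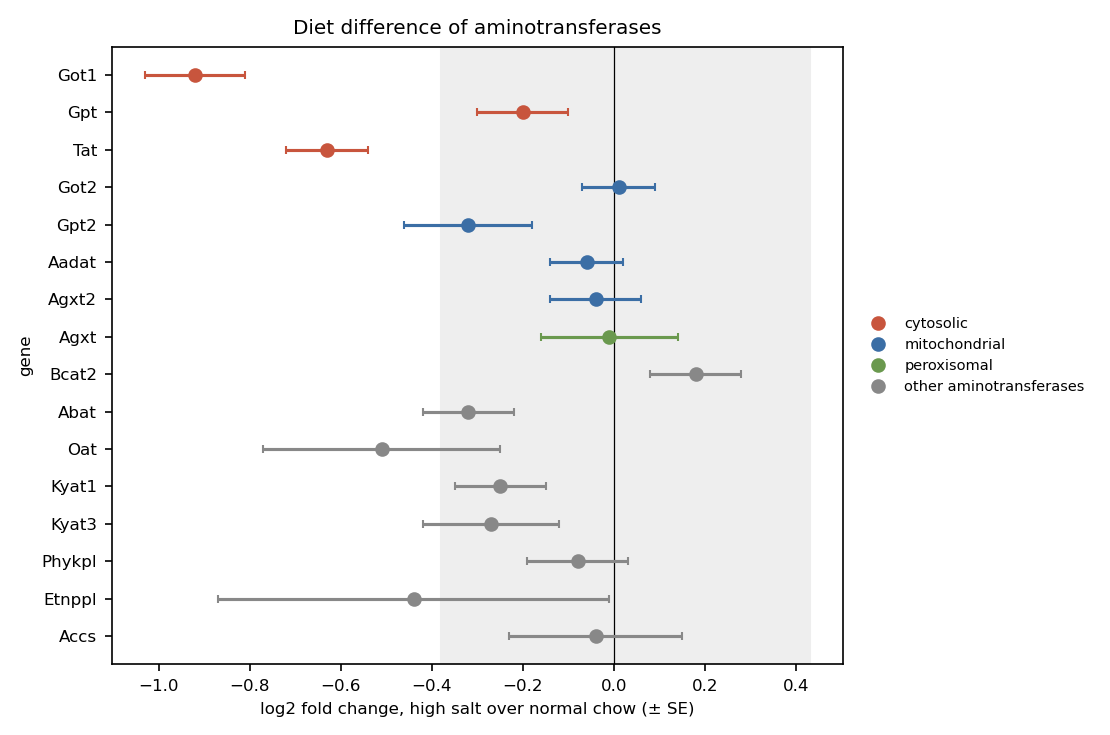
Log2 fold change of high salt over normal chow with its SE (horizontal axis) for the 8 tested members, coloured by compartment, and for 8 other aminotransferase genes in grey; the shaded band runs from the 5th to the 95th percentile of all tested genes (-0.38 to 0.43). Got1 at -0.92 and Tat at -0.63, which brought the set into view, lie outside the band. The 4 mitochondrial members, cytosolic Gpt (-0.20) and peroxisomal Agxt (-0.01) lie within it. Oat (-0.51 ± 0.26) and Etnppl (-0.44 ± 0.43), grey genes outside the naming rule, also lie outside the band.

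The ratio of a cytosolic to a mitochondrial transcript within a library does not depend on how libraries are scaled. Reads of Got1 over reads of Got2 gave 1.89, 1.52, 1.76 and 1.65 in normal chow and 0.840, 0.773, 0.894 and 1.07 in high salt. Thus Got1 had more reads than Got2 in all 4 normal-chow libraries and in 1 of the 4 high-salt libraries. The mean log2 ratio differed by -0.94 (high salt minus normal chow), with SDs of 0.14 (normal chow) and 0.20 (high salt). Per kb of exon the mean ratio was 3.24 ± 0.303 for normal chow and 1.70 ± 0.245 for high salt (± SD), so Got1 was above Got2 in every library on that scale. Per kb of coding sequence it was 1.58 to 1.97 for normal chow and 0.805 to 1.12 for high salt, so Got1 was below Got2 in 3 of the 4 high-salt libraries. Since 25.6% of the 50-base words of Got2 also occur in other genes, its reads may be undercounted. The order of Got1 and Got2, here and in the levels per kb below, depends on this.

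Reads of Gpt over reads of Gpt2 gave 0.758, 0.770, 0.732 and 0.813 in normal chow and 0.891, 0.981, 0.904 and 0.653 in high salt. The normal-chow libraries lay close together, 3 high-salt libraries were above all of them, and high salt 4 was below all of them. The mean log2 ratio differed by 0.14, with an SD of 0.26 in high salt. It was 0.27 without high salt 4 and 0.07 without high salt 2, so the 2 alanine aminotransferases did not separate beyond their spread. These ratios rest in part on the diet difference of Got1 and are given with no test.

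Summed per kb of exon, the 4 cytosolic members over the 4 mitochondrial members gave 6.64 to 8.90 in normal chow and 5.27 to 6.00 in high salt. Without Tat, which dominates the sum, normal chow gave 1.38 to 1.66 and high salt 0.983 to 1.06. Neither ratio overlapped between the diets. The mean log2 difference was -0.51 with Tat and -0.53 without it. The ratio without Tat still held Got1. Got1 and Tat brought the set into view by their diet difference, so nothing is read from either summed ratio. A summed ratio without both genes was not computed.

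**Figure D3:**
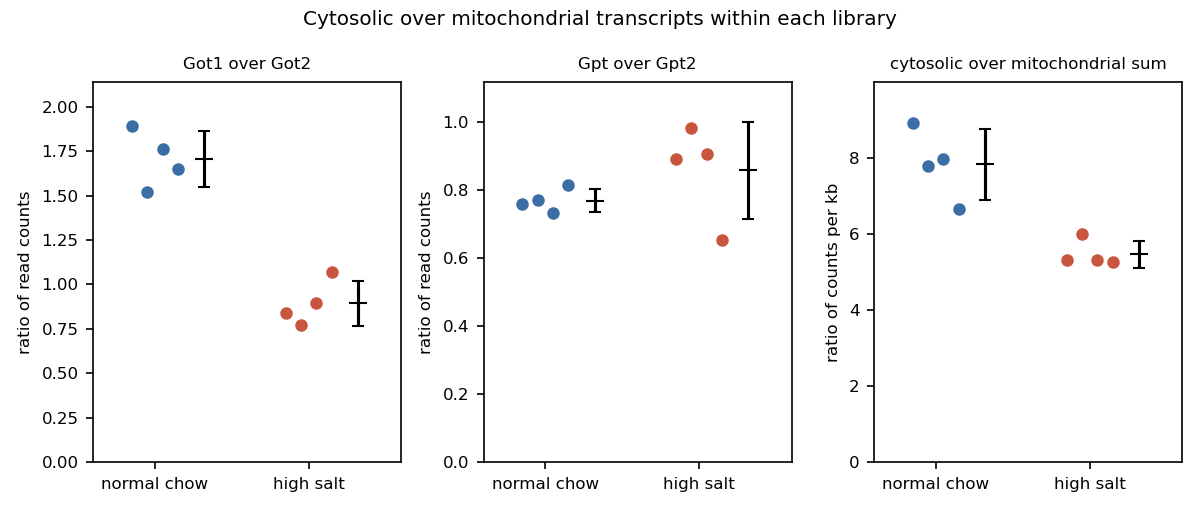
Ratio of cytosolic to mitochondrial aminotransferase transcripts (vertical axis, from 0) in each of 4 normal-chow (blue) and 4 high-salt (red) libraries, with mean and SD bars. Got1 over Got2 had means of 1.70 and 0.895 with no overlap, Gpt over Gpt2 was 0.768 and 0.857 with overlap, and the summed ratio was 7.82 and 5.47.

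Levels of different genes were compared per length, as CPM per kb of the union of annotated exons. In normal chow Tat stood far above the rest at 1429 ± 155 CPM per kb (mean ± SD, n = 4). Agxt (234 ± 42.2) and Got1 (229 ± 24.0) followed and could not be ordered, since their ranges overlapped. Next came Gpt at 109 ± 11.3 CPM per kb, then Gpt2 (74.3 ± 7.05) and Got2 (70.7 ± 2.00), which overlapped each other. Gpt was divided by 2.941 kb of exon, from an annotation with other coordinates than the counted gene. That length is more than the whole counted gene spans (76696764 to 76699674 on chromosome 15). The level of Gpt per kb of exon may thus be understated, which also bears on the summed ratios above. Aadat (46.9 ± 2.68) and Agxt2 (34.9 ± 3.08) were lower with ranges apart, and Psat1 was last at 0.0718 ± 0.0240 CPM per kb.

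By exon length in high salt, Got1 was at 121 ± 17.4 CPM per kb, below every value of Agxt (197 to 295 CPM per kb) and overlapping Gpt (83.2 to 105 against 103 to 145 for Got1). Tat was still first at 926 ± 36.7 CPM per kb. Of the members' summed RNA per kb, Tat held 64.0 ± 3.44% in normal chow and 58.5 ± 0.800% in high salt, and Got1 held 10.3 ± 0.951% and 7.64 ± 0.961%. The order depends on the length used. By coding length Got1 came before Agxt in normal chow, and Gpt came after Gpt2 and Got2. In high salt, by coding length, Got1 (211 to 297 CPM per kb) overlapped Agxt (269 to 403), lay above every value of Gpt (164 to 207) and had a lower mean than Got2 (248 against 266).

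**Figure D4:**
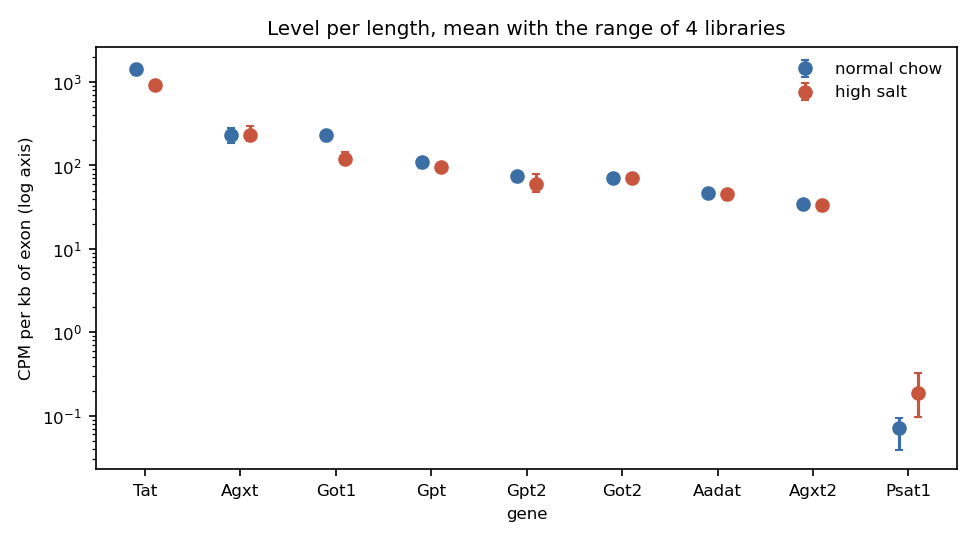
Mean level of each member in CPM per kb of exon (vertical log axis) in normal chow (blue) and high salt (red), with the range of 4 libraries per group as bars. Tat is highest in both groups, Got1 moves from beside Agxt (229 and 234 CPM per kb) toward Gpt, and Psat1 lies far below the rest.

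Whether the members vary together among libraries of 1 diet is a measure that the diet comparison did not use. Deviations of log2 CPM from the diet means were compared over the 8 libraries in all 36 pairs of members. Pearson's r ran from -0.84 to 0.94 with a median of -0.02, and 18 pairs were above 0. The highest was that of Aadat and Agxt2 (r = 0.94, permutation p = 0.0139, Spearman's rho = 0.74, permutation p = 0.0712). Adjusted over 36 pairs these p-values were 0.438 and 0.807, and without the 2 libraries farthest from the median of Aadat r was 0.61. The lowest was that of Psat1 and Aadat (r = -0.84, permutation p = 0.0243; rho = -0.83, permutation p = 0.0312), which gave adjusted p = 0.438 and 0.807 and r = -0.56 without 2 libraries. For Got1 and Got2 r was 0.31 (rho = 0.43), for Got1 and Tat 0.26 (rho = 0.45), and for Gpt and Gpt2 0.65 (rho = 0.55). No pair passed after adjustment over the 36 pairs.

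Among 9250 tested genes whose mean CPM reached 5, those whose deviations from the diet means were most like those of Got1 were Scaper (r = 0.98), Btrc (0.96), Glg1 (0.96), Esyt2 (0.95) and Hecw2 (0.95). For Tat they were Pelp1 (r = 0.99), Cc2d1a (0.97), Zfand4 (0.96), Atp2c1 (0.95) and Dnmt1 (0.95). Each r is over the same 8 libraries and is the highest of many, and it is given as a description. None of the 10 genes was called between the diets. Their log2 fold changes ran from -0.31 (Hecw2) to 0.19 (Dnmt1), beside -0.92 for Got1 and -0.63 for Tat.

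Of 10 further aminotransferase genes, 9 were in the table and 8 were tested. The 3 tools called 0 of them. Of the 8, 7 had a log2 fold change below 0, and the median was -0.26. For this and the lists that follow, the shares over all 13341 tested genes were 48.7% below 0 on the log2 scale, 10.9% at an unadjusted p below 0.05, 1.79% called by DESeq2 and 0.112% called by limma-voom. Abat, the mitochondrial GABA aminotransferase, was at 449, 467, 441 and 446 CPM in normal chow and at 359, 286, 396 and 404 CPM in high salt. The groups did not overlap, and the log2 fold change was -0.32 ± 0.10 (adjusted p = 0.256). Kyat1, a cytosolic kynurenine aminotransferase, had -0.25 ± 0.10 (adjusted p = 0.389), and -0.16 without normal chow 1. These were the 2 tested genes of this list with an unadjusted p below 0.05.

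The product that Tat makes from tyrosine is broken down further by Hpd, Hgd, Gstz1 and Fah. All 7 tested genes of phenylalanine and tyrosine breakdown other than Tat had a log2 fold change below 0, with a median of -0.26. edgeR called 0 and limma-voom called 0, DESeq2 called 3, and 4 had an unadjusted p below 0.05. Hgd, the homogentisate dioxygenase, was at 683 to 791 CPM in normal chow and at 496 to 618 CPM in high salt, with no overlap (-0.38 ± 0.10, adjusted p = 0.148).

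In the malate-aspartate shuttle, in which Got1 and Got2 work with 2 malate dehydrogenases and 2 kinds of carrier, edgeR, DESeq2 and limma-voom called 0 of 5 other genes and the median was -0.03. Mdh2, the mitochondrial malate dehydrogenase, had -0.20 ± 0.07 (adjusted p = 0.312), the 1 gene of the list with an unadjusted p below 0.05. Mdh1, its cytosolic form, had -0.14 ± 0.08 (adjusted p = 0.570). The level of Mdh2 was 128 to 138 against 111 to 120 CPM and that of Mdh1 was 794 to 877 against 691 to 809 CPM, and the difference between the 2 genes was not tested. Slc25a13, the main aspartate-glutamate carrier of liver and a gene outside the naming rule, was at 256 ± 14.6 and 260 ± 11.1 CPM.

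Among 7 enzymes of glutamate and glutamine, which receive or release the amino group, the 3 tools called 0, the median was -0.06, and an unadjusted p below 0.05 was reached by 3, all lower. Gls2, the liver glutaminase, had -0.42 ± 0.13 (adjusted p = 0.215, and -0.28 without normal chow 1) and Aldh4a1, of proline breakdown, had -0.23 ± 0.08 (adjusted p = 0.322). In the 8 genes around alanine and pyruvate the median was 0.07. edgeR and limma-voom called 0, DESeq2 called 2, and 1 higher and 2 lower genes had an unadjusted p below 0.05. Pck1, of gluconeogenesis, had -0.37 ± 0.10 (adjusted p = 0.148) and Sds, the serine dehydratase, had -0.52 ± 0.14 (adjusted p = 0.190).

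All 10 genes of lysine and tryptophan breakdown around Aadat had a log2 fold change below 0, with a median of -0.18, although Aadat itself was at -0.06. edgeR and limma-voom called 0, DESeq2 called 3, and 5 had an unadjusted p below 0.05. Aass, the first enzyme of lysine breakdown, was at 444 to 507 CPM in normal chow and at 319 to 380 CPM in high salt (-0.40 ± 0.09, adjusted p = 0.0945). Kynu, which cleaves kynurenine and its hydroxylated form, had -0.33 ± 0.09 (adjusted p = 0.185). Acmsd, which was picked out after its values were seen, had the value farthest from 0 at -1.54 ± 0.36 (adjusted p = 0.191). Normal chow libraries 1 to 4 were at 57.1, 30.4, 29.0 and 18.0 CPM (mean 33.6). High salt ran from 10.3 to 14.8 CPM (mean 11.5).

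The list around Agxt and Agxt2 held 7 genes, namely Hao1, Grhpr, Hoga1, Prodh2 and Ldha of glyoxylate and oxalate metabolism, and Ddah1 and Ddah2, which break down dimethylarginine. All 7 were above 0 on the log2 scale (median 0.24), and Ldha also counts in the alanine and pyruvate list. edgeR, DESeq2 and limma-voom called 0, while 3 genes, all higher, reached an unadjusted p below 0.05. Hoga1, which makes glyoxylate from hydroxyproline carbon, was at 82.1 to 120 CPM in normal chow and at 124 to 134 CPM in high salt (0.34 ± 0.10, adjusted p = 0.216). Grhpr, which reduces glyoxylate, had 0.36 ± 0.12 (adjusted p = 0.304), and 0.23 without high salt 1. Of the serine genes around Psat1, 5 were tested and 4 were below 0, with a median of -0.19. The 3 tools called 0 of them, and 2, both lower, reached an unadjusted p below 0.05. Shmt1, of serine and glycine exchange, had -0.25 ± 0.09 (adjusted p = 0.329) and Cbs, which joins serine to homocysteine, had -0.24 ± 0.10 (adjusted p = 0.409), and -0.14 without normal chow 1. In this list Phgdh, the first step of serine synthesis and a gene outside the naming rule, was at 0.405 ± 0.183 and 0.380 ± 0.310 CPM, as near to silence as Psat1.

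Pyridoxal phosphate, the cofactor that all members share, is made from vitamin B6 in steps that include the kinase Pdxk. Of 5 tested genes of its supply edgeR and limma-voom called 0 and DESeq2 called 1, while 2 higher and 1 lower had an unadjusted p below 0.05. Pdxk, the pyridoxal kinase, had -0.50 ± 0.14 (adjusted p = 0.191), and Alpl, a phosphatase that releases pyridoxal, had 0.42 ± 0.13 (adjusted p = 0.230). The median of the list was 0.01.

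Among 16 regulators known to act on liver aminotransferase genes, Foxo1 was the 1 called gene, with 0 called by limma-voom and 2 by DESeq2. The median was 0.02, and 2 higher and 3 lower genes had an unadjusted p below 0.05. Foxo1, a transcription factor that insulin keeps out of the nucleus, was at 66.4, 70.1, 54.7 and 77.5 CPM in normal chow and at 46.6, 45.6, 45.1 and 49.8 CPM in high salt. Its log2 fold change was -0.52 ± 0.10 (adjusted p = 0.0432), a call already known when the list was drawn up. Leaving out normal chow 3 kept that call (adjusted p = 0.0250), and leaving out any other single library ended it (0.0501 to 0.142) at a log2 fold change of -0.56 to -0.45. The call was also lost with total counts (-0.46, adjusted p = 0.0875), with limma-voom (-0.51, adjusted p = 0.0895) and with a replicate block (-0.51, adjusted p = 0.0817). Of 9 tested glucocorticoid-induced genes other than Tat, edgeR and limma-voom called 0 and DESeq2 called 2. Their median was -0.30 with 6 below 0, and 1 higher and 2 lower had an unadjusted p below 0.05. Sgk1, a kinase that acts on sodium transport, had 0.54 ± 0.16 (adjusted p = 0.216), and 0.35 without high salt 2. Pck1 (-0.37 ± 0.10, adjusted p = 0.148) counts in this list too. Outside the naming rule, the other regulators with an unadjusted p below 0.05 were Ppargc1a, Klf15, Cebpa and Atf4. Ppargc1a had -0.69 ± 0.16 (adjusted p = 0.136) and Klf15 had -0.25 ± 0.08 (adjusted p = 0.256). Cebpa had 0.33 ± 0.09 (adjusted p = 0.204) and Atf4 had 0.34 ± 0.10 (adjusted p = 0.191). Atf4, a regulator of amino acid genes, binds TGATGNAA, and its part in the level of Got1 was not tested. Nr3c1, the glucocorticoid receptor and also outside the rule, had 0.11 ± 0.07 (adjusted p = 0.642).

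**Figure D5:**
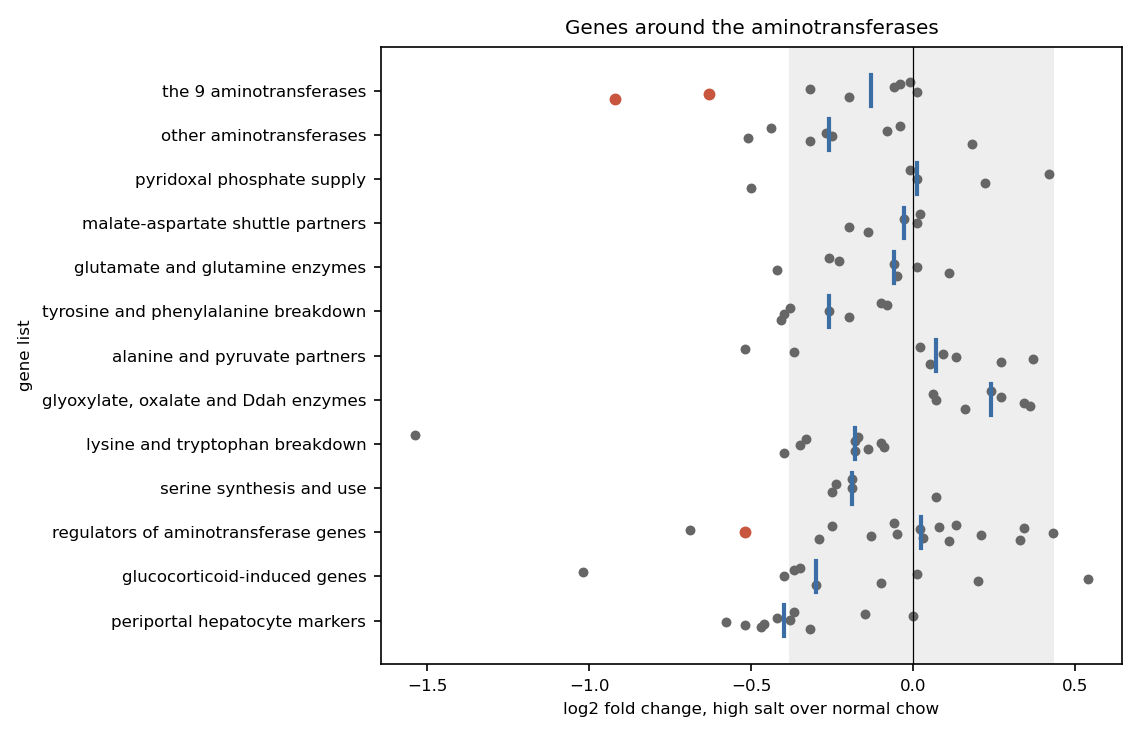
Log2 fold change of high salt over normal chow (horizontal axis) of every tested gene in the 9 aminotransferases and in 12 lists around them; red points are genes called at an adjusted p below 0.05, blue bars are list medians, and the shaded band is the 5th to 95th percentile of all tested genes. The called genes are Got1, Tat and Foxo1, and the list medians run from -0.40 (periportal markers) to 0.24 (the list of glyoxylate, oxalate and Ddah enzymes).

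Periportal hepatocytes, which lie where blood enters the lobule, hold much of the machinery of amino acid breakdown. The summed level of 10 periportal markers, of which none is a member, was 17420 to 19308 CPM in normal chow and 11978 to 14765 CPM in high salt. All 10 had a log2 fold change at or below 0, with a median of -0.40. edgeR called 0, limma-voom 0 and DESeq2 6, and 7 had an unadjusted p below 0.05. Cyp2f2 (-0.32 ± 0.19), Ctsc (-0.15 ± 0.12) and Hsd17b13 (-0.00 ± 0.16) did not reach it. Most of the sum came from Cps1, Ass1, Pck1 and Arg1, which did. Of the 10, Sds, Gls2 and Pck1 also belong to lists above. The sum of 10 pericentral markers was 6844 to 15068 and 8745 to 11538 CPM, with overlap. Of 9 tested, 5 were below 0 with a median of -0.15, edgeR, DESeq2 and limma-voom called 0, and 3 were below 0 with an unadjusted p below 0.05. Cyp1a2, picked out after its values were seen, was at 643 to 5640 and 321 to 456 CPM (-2.44 ± 0.72, adjusted p = 0.312). Endothelial markers summed to 300 to 323 and 278 to 297 CPM. Kupffer cell, stellate and biliary markers overlapped between the diets, and kidney, skeletal muscle and adipose markers summed to at most 6.28 CPM in any library. Got1, Tat and the periportal sum were all lower in the high-salt libraries, which holds for any genes lower in that group and does not link them. The part of cell composition in this was not tested.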

How the data were processed

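Liver RNA of 4 normal-chow and 4 high-salt libraries was analysed. The authors deposited raw counts of reads for every gene, per the file headers, with no normalization. GRCm38, HTSeq 0.6.0, HISAT2 2.1.0 and StringTie 1.3.2d appear, without roles, in the submitters' processing notes. Strand setting and annotation release were not given in the sources used here. Overlapping genes may share reads. The authors' deposited table also holds a fold ratio, its log2 value, p-values and adjusted p-values, by a tool that is not named. Its folds of Got1 and Tat are quoted once.

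Differential expression was computed across all genes with edgeR 4.0.16 in R 4.3.3 (TMM, filterByExpr, robust quasi-likelihood test, Benjamini-Hochberg over 13341 genes, two-sided), and tested on simulated data. DESeq2 1.42.0 and limma 3.58.1 were alternatives. SE were taken from the fold change and F statistic, and 95% intervals from the t distribution. Deviations used log2(CPM + 0.1), and their correlations were tested by permutation within diets (576 arrangements, two-sided, smallest p 0.00174). Lengths and overlaps came from GENCODE M21. The main fit did not pair libraries by the replicate numbers in the titles, since no pairing is stated. The members, lists and naming rule were chosen with earlier results of these data known. Named were all members, called list genes or otherwise the 2 of smallest p, and the 5 genes most like Got1 and Tat. A result that this rule would name is not reported here. The correlation p-values and the fit without 2 libraries were added after the data were seen.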

Additional observations from a re-analysis of the deposited data

Results flagged for a closer look

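A single library stood apart within its diet in 3 of 66 groups of 4 values tested, by the ratio of its gap to the group's range against Dixon's 95% critical value, which chance exceeds in about 1 of 20 groups. Gls2 in normal chow 1 was at 701 CPM, where the rest of that diet ran from 485 to 506 CPM. Aass was at 507 CPM in normal chow 1 and at 444 to 453 CPM in the others. The summed cytosolic over mitochondrial ratio per kb was 6.00 in high salt 2 and 5.27 to 5.30 in the other high-salt libraries. No member of the set stood apart on its own.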

How the results depend on the processing

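The differences of Got1 and Tat chose the set, so their values across settings are a description. Got1 was at -1.02 to -0.86 and was called in each alternative. Tat lost its call with a replicate block (-0.62, adjusted p = 0.0801), without normal chow 2 and high salt 2 together (-0.63, adjusted p = 0.0974), and without normal chow 2 (0.0644), normal chow 3 (0.0661) or high salt 1 (0.0642), with a range of -0.70 to -0.59 without 1 library. Same-numbered libraries did not deviate together (correlations -0.21, -0.26, 0.22 and -0.03, beside -0.33 to 0.41 for other pairs across the diets). The labels do not state whether they share more than a number, and these correlations cannot exclude it. Small values changed sign. Agxt2 was at 0.02 with total counts and also without both libraries (range -0.09 to 0.04 without 1 library), Agxt was at 0.05 with total counts and at -0.26 without both libraries (range -0.16 to 0.09), and Got2 ranged from -0.02 to 0.03. The count of 40 called genes was 220 with no filter, 239 by DESeq2, 15 by limma-voom, 11 with the block, 5 without both libraries, and 4 to 57 without 1 library. The lower counts without 1 library come from normal chow 2 (4), high salt 1 (5), normal chow 3 (11) and high salt 2 (18). The log2 ratio difference ranged from -1.03 to -0.87 for Got1 over Got2 and from 0.07 to 0.27 for Gpt over Gpt2 without 1 library. The cause of these shifts was not tested. Psat1 passed the filter in 5 of the 8 fits without 1 library (1.15 to 1.56, adjusted p from 0.257 to 0.479).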
